A study of Mus musculus with 8 samples.

Results

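The S100 fused-type filaggrin family was taken as the 6 genes Flg, Flg2, Hrnr, Rptn, Tchh and Tchhl1, matched by symbol in both deposited tables, 6 of 16902 listed genes. RNA sequencing of polyadenylated RNA was done on epidermis that dispase had freed from the back skin of CD1 mice, with 2 libraries per group, 1 female and 1 male. The groups were Ovol1 -/- and Ovol1 +/- control mice without treatment, and Ovol1 -/- and Ovol1 +/+ control mice given imiquimod (IMQ), which activates Toll-like receptors and inflames mouse skin in a psoriasis-like way. Untreated and IMQ controls thus had different Ovol1 genotypes. The sources used here give neither age, nor IMQ dose and duration, nor the design of the Ovol1 allele. Libraries held 28.6 to 43.1 M reads.

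Fused-type S100 proteins carry a calcium-binding S100 domain at the amino end of a long, mostly repetitive body. Profilaggrin is stored in the keratohyalin granules of the granular layer and is cut into filaggrin, which bundles keratin filaments and is later broken down to amino acids that hold water in the cornified layer. Filaggrin-2, hornerin and repetin are related proteins of the cornified envelope. Trichohyalin hardens the inner root sheath and medulla of the hair follicle after cross-linking by transglutaminases and citrullination. OVOL1 is a zinc-finger protein that regulates transcription in stratified epithelia. In human keratinocytes it has been reported to raise filaggrin downstream of the aryl hydrocarbon receptor.

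The 6 genes were consecutive protein-coding genes on the plus strand of chromosome 3 (mm10, GRCm38 coordinates, GENCODE M21). Flg2 lay at 93197278 to 93221391, Flg at 93273523 to 93293686, Hrnr at 93319749 to 93333570, Rptn at 93393699 to 93399442, Tchh at 93442330 to 93449077 and Tchhl1 at 93468754 to 93471980, with gaps of 19.7 to 60.1 kb between neighbours. The longest annotated transcript had 3 exons in 5 of the genes and 2 in Tchh. They differ in how much of the transcript repeats itself. Of all stretches of 100 bases, 71.3% in Flg, 67.3% in Hrnr and 55.5% in Flg2 occurred more than once in the same transcript, against 2.43% in Tchh and 0% in Rptn and Tchhl1. No such stretch of any member was found in an annotated transcript of another gene. How reads that match several places were counted is not given in the sources used here, so the levels of Flg, Hrnr and Flg2 may leave out reads, in every library alike.

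The sequences before the gene starts are shown for the 4 genes that share a motif, among them Tchhl1 and Rptn, which were higher in labelled knockouts, and Flg2, which was lower. They come from RefSeq promoter windows (GRCm38.p6, plus strand, 5′ to 3′), which matched 6 of 6 members. The capitals mark the letters TGANTCA, a pattern that reads the same on both strands and is looser than the AP-1 consensus, which has C or G in the middle. All 4 matches have A or T there, so none is the consensus itself. For Rptn and Tchhl1 the 250 bases before the start are printed (chr3:93393449-93393698 and chr3:93468504-93468753), and for Flg2 and Flg the surroundings of the match (chr3:93197164-93197250 and chr3:93273403-93273489).
Tchhl1: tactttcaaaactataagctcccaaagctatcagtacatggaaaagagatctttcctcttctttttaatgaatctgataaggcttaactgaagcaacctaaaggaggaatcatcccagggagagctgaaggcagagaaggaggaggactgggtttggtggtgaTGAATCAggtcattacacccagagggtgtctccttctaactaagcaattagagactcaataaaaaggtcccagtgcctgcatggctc
Rptn: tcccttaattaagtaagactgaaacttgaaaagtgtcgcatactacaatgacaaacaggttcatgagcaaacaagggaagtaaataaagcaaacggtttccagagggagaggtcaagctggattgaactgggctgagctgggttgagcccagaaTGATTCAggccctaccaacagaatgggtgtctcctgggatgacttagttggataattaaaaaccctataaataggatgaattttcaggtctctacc
Flg2: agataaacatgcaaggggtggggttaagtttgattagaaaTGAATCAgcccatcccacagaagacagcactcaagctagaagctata
Flg: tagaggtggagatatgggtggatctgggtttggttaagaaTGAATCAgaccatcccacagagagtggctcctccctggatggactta
Counted from the RefSeq start, which differs from the GENCODE start above for Flg2 and Flg, the match began 87 bases before it in Tchhl1, 96 in Rptn, 69 in Flg2 and 103 in Flg. It was present in 4 of 6 member windows of 300 bases and in 7.81% of 32851 windows of all genes. Hrnr and Tchh had no match. The Ovol core CCGTTA, searched on both strands, was in 0 of 6 member windows and in 2.76% of all. The looser core CNGTTA, which includes those letters, was in the Tchhl1 window, on the reverse strand 166 bases before the start, and in 23.3% of all windows. The Grhl letters AACNGGTT were in the Rptn window (2.09% of all windows), the Ahr core GCGTG in 0 of 6 (32.4%) and the Klf core GGGTG in 5 of 6 (57.5%). A match describes these letters only and does not show that a factor binds there.

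Ovol1, the labelled target, had 27433 and 26601 normalised counts in the untreated Ovol1 -/- libraries and 16629 and 14582 in their controls. Under IMQ it had 13457 and 13076 in the Ovol1 -/- libraries and 7635 and 9556 in their controls. The tables give no value per exon, so these levels do not check the genotype, and the Ovol1 -/- libraries are called labelled knockouts here. The keratinocyte lists were high in all 8 libraries, with summed CPM (reads per 1 M, with library sizes corrected by TMM factors) of 16071 to 22774 for basal genes, against 44.2 to 62.7 for T cell genes and 739 to 3788 for dermal fibroblast genes. The female IMQ control stood apart in skeletal muscle genes (99.6 CPM summed, 4.9 to 18.0 in the other 7), endothelial genes (29.8, against 2.7 to 5.5), melanocyte genes (96.4, against 32.2 to 53.7) and Langerhans and myeloid genes (4398, against 1495 to 2720). In bulk RNA, fewer cells of a type and less RNA per cell cannot be told apart.

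**Figure D1:**
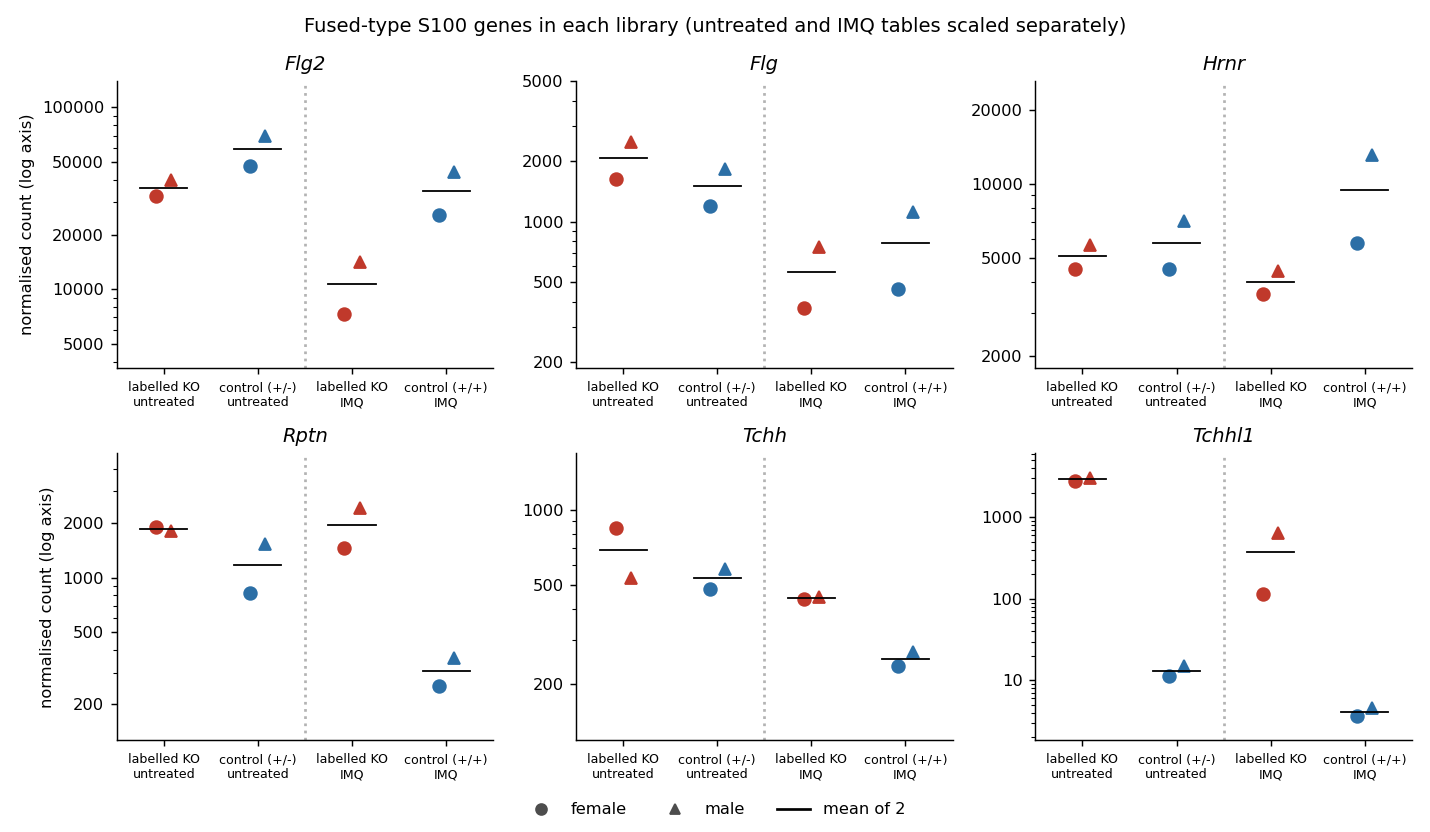
Normalised counts (log axis) of the 6 genes in each of the 8 libraries, labelled knockouts in red and controls in blue, circles female, triangles male, bars the mean of 2. Tchhl1 is at 2786 and 3066 in untreated labelled knockouts and at 11.2 and 15 in their controls, and Rptn under IMQ at 1467 and 2433 against 253 and 361.

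Per length (RPKM with TMM factors, on the longest transcript), the order of the family differed between the labelled knockouts and their controls, while both control groups had the same order. In untreated labelled knockouts Flg2 led with 45.9 ± 6.21 RPKM (SD, n = 2 here and below), followed by Tchhl1 with 37.3 ± 2.41, Hrnr with 12 ± 1.90, Rptn with 11.7 ± 0.47, Flg with 3.76 ± 1.09 and Tchh with 3.12 ± 1.01. In untreated controls Flg2 was at 75.9 ± 20.4 RPKM, Hrnr at 13.9 ± 4.34, Rptn at 7.63 ± 3.24, Flg at 2.80 ± 0.82, Tchh at 2.45 ± 0.33 and Tchhl1 at 0.171 ± 0.035. Tchhl1 was thus last in the controls and next to Flg2 in the labelled knockouts. Libraries of neighbours in these orders overlapped for Hrnr and Rptn in labelled knockouts, and for Flg and Tchh in both groups.

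Under IMQ the labelled knockouts had Flg2 at 16.8 ± 7.64 RPKM, Rptn at 15.4 ± 5.51, Hrnr at 11.6 ± 1.87, Tchhl1 at 5.96 ± 5.84, Tchh at 2.48 ± 0.057 and Flg at 1.27 ± 0.61. The IMQ controls had Flg2 at 54.5 ± 20.1 RPKM, Hrnr at 27.4 ± 15, Rptn at 2.41 ± 0.58, Flg at 1.77 ± 1.02, Tchh at 1.41 ± 0.12 and Tchhl1 at 0.0650 ± 0.0095. In the labelled knockouts libraries overlapped between Flg2 and Rptn, between Rptn and Hrnr, and between Tchhl1 and Tchh. In the controls they overlapped between Rptn and Flg and between Flg and Tchh.

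The makeup of the family summarises this. Flg2 made up 38.9% and 41.6% of the summed RPKM in the untreated labelled knockouts (female, male), against 74.8% and 73.2% in their controls. Tchhl1 made up 33.4% and 32.2% in the labelled knockouts and 0.177% and 0.158% in the controls. Under IMQ Rptn made up 29.9% and 28.0% in the labelled knockouts and 3.26% and 2.49% in the controls, and Flg2 made up 29.8% and 32.3% against 65.5% and 60.5%. These shares do not depend on the scaling of the libraries.

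**Figure D2:**
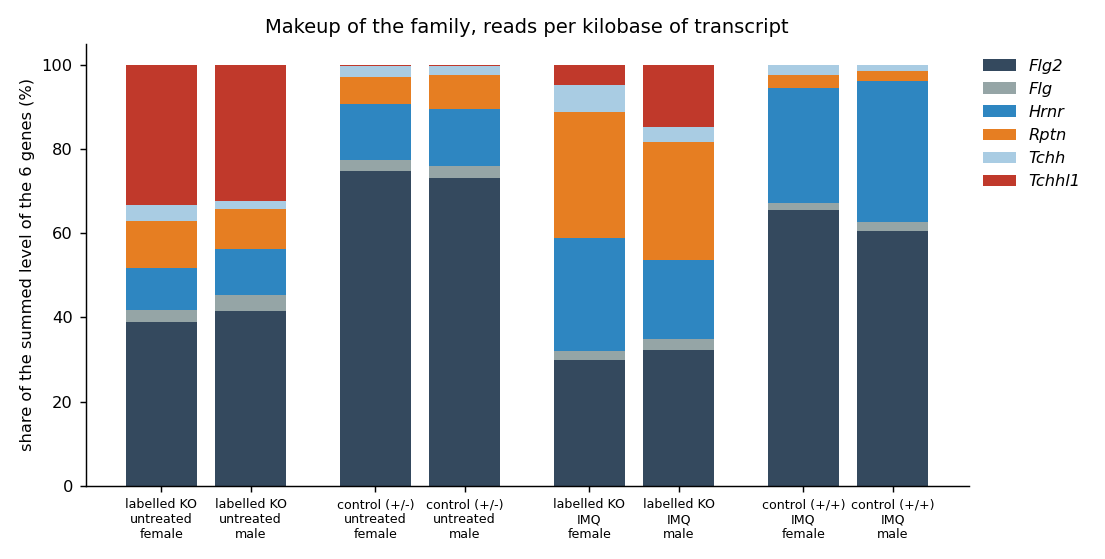
Share of each gene in the summed level of the 6 genes (reads per kilobase of transcript, %), 1 bar per library. Flg2 takes 38.9% and 41.6% in untreated labelled knockouts and 74.8% and 73.2% in their controls, and Rptn takes 29.9% and 28.0% in IMQ labelled knockouts and 3.26% and 2.49% in their controls.

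The untreated comparison asks how the family stands in resting epidermis labelled as lacking Ovol1. None of the 6 genes passed the limma threshold (adjusted p under 0.05 over 14614 genes), where 0.0% of all genes did. Tchhl1 alone had an unadjusted p under 0.05, which 652 genes or 4.46% had, 2.79% upwards. edgeR called 0 members and 0.0% of genes, and DESeq2 called 1 (Tchhl1) and 0.595% of genes. Both labelled knockouts were above both controls in Tchhl1 and Rptn (17.4% of genes) and below them in Flg2 (16.4% of genes).

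Tchhl1, a trichohyalin-like gene of largely undescribed function, had 2689 reads in the female and 2976 in the male labelled knockout and 13 and 14 in the controls. The groups were far apart and the sexes close. The log2 fold change was 7.71 (SE 0.68, limma adjusted p = 0.0634), and it was first of 14614 genes in size and in unadjusted p. As a ratio of read shares this was 253-fold in the female pair (exact 95% interval 148 to 476) and 205-fold in the male pair (122 to 376), intervals that cover counting error only. With sex as a block the log2 fold change was the same, and Tchhl1 was called higher (limma adjusted p = 0.0312), as 1 of 6 members. That fit called 0.0547% of genes, 0.0411% upwards and 0.0137% downwards. Without the block, leaving out 1 untreated library gave adjusted p-values of 0.323 to 0.525 and plain moderation 0.123, while leaving out the female or the male IMQ labelled knockout, which enter this contrast only through the spread, gave 7.75e-04 and 0.00108.

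Rptn, which encodes repetin, an envelope precursor, had 1895 and 1799 normalised counts in the female and male labelled knockouts against 827 and 1529 in the controls. The female pair was further apart than the male pair, with log2 differences of 1.20 and 0.23. The fitted log2 fold change was 0.72 (SE 0.34, limma adjusted p = 1.00, 0.643 with the block). Tchh, which encodes trichohyalin itself, had 845 and 533 in the labelled knockouts and 480 and 581 in the controls. Its groups overlapped, and its log2 fold change was 0.34 (SE 0.23, limma adjusted p = 1.00), with the pairs of opposite sign.

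Flg2, which encodes filaggrin-2, had 32697 and 39796 normalised counts in the labelled knockouts and 47809 and 69881 in the controls. The labelled knockouts were lower in both sexes without overlap, at -0.68 on the log2 scale (SE 0.37, limma adjusted p = 1.00, 0.423 with the block). Flg, the filaggrin gene, had 1640 and 2501 in the labelled knockouts and 1202 and 1821 in the controls, 1.36 and 1.37 times the control of the same sex. Because the male libraries were higher in both groups the groups overlapped, and the log2 fold change of 0.45 had an SE of 0.48 (limma adjusted p = 1.00, 0.827 with the block). Hrnr, which encodes hornerin, had 4508 and 5669 in the labelled knockouts and 4511 and 7044 in the controls, which overlapped (log2 fold change -0.16, SE 0.38, limma adjusted p = 1.00).

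**Figure D3:**
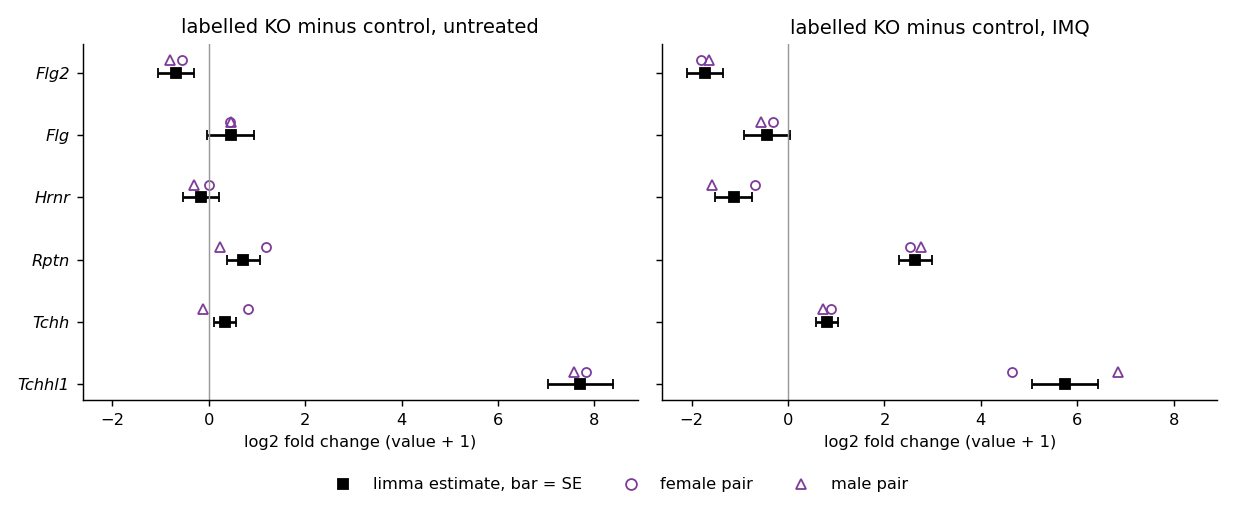
Log2 fold change of labelled knockout minus control for each gene, untreated and under IMQ (squares, limma estimate with SE; open circles and triangles, female and male pair). Tchhl1 lies at 7.71 and 5.74, Rptn at 0.72 and 2.64, and Flg2 at -0.68 and -1.72.

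The comparison under IMQ asks the same of inflamed epidermis. Tchhl1 and Rptn rose in the labelled knockouts, 2 of 6 members where 0.438% of 14614 genes passed the limma threshold, 0.157% upwards and 0.281% downwards. Flg2, Hrnr and Tchh did not pass it, though 5 of 6 members had an unadjusted p under 0.05, which 22.0% of genes had. Libraries did not overlap for Rptn, Tchh and Tchhl1, which were higher (26.6% of genes), and for Flg2 and Hrnr, which were lower (26.4%).

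Rptn had 1467 and 2433 normalised counts in the female and male labelled knockouts against 253 and 361 in the controls. Both labelled knockouts were above both controls, and the pairs were alike at 5.79 and 6.74 times. The log2 fold change was 2.64 (SE 0.34, limma adjusted p = 0.0400), and 28 of 14614 genes had a more positive one. Tchhl1 had 117 and 668 reads in the labelled knockouts and 4 in each control. It changed by 5.74 on the log2 scale (SE 0.68, limma adjusted p = 0.0312), and no gene had a more positive value. The labelled knockouts differed between themselves, with read-share ratios of 30.9 in the female pair (exact 95% interval 11.7 to 115) and 140 in the male pair (54.6 to 517).

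Both calls rest on small groups. They were not made by edgeR, which called 0 of 6 members and 0.205% of genes, 0.0821% upwards (adjusted p = 0.0530 for Rptn and 0.0613 for Tchhl1), with the IMQ table alone (0.149 and 0.150), or without any of the 4 untreated libraries, the female (0.131 and 0.127) or the male IMQ control (0.0616 and 0.0649). Without the female labelled knockout Rptn was not called (0.132).

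Flg2 had 7335 and 14091 normalised counts in the labelled knockouts and 25543 and 44027 in the controls. The lower control was above the higher labelled knockout, and the pairs were alike at 0.287 and 0.320 times. The log2 fold change was -1.72 (SE 0.37, limma adjusted p = 0.0818). Flg2 fell when sex entered as a block (adjusted p = 0.0123), which with Rptn and Tchhl1 (both 0.0123) made 3 of 6 members. That fit called 2.45% of genes, 0.588% upwards and 1.86% downwards. In the fit without the block, leaving out the male labelled knockout also gave a call (log2 fold change -2.19, adjusted p = 0.0466), and leaving out each of the other 7 libraries gave none (adjusted p of 0.107 to 0.374, with -1.25 as log2 fold change without the female labelled knockout).

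Hrnr had 3561 and 4414 normalised counts in the labelled knockouts and 5732 and 13111 in the controls. The male control was the highest of the 4 IMQ libraries, and the pairs differed, at 0.621 times in the females and 0.337 times in the males. The log2 fold change was -1.13 (SE 0.38, limma adjusted p = 0.160, 0.0511 with the block). Tchh had 438 and 447 in the labelled knockouts and 237 and 268 in the controls, a narrow spread within groups (log2 fold change 0.81, SE 0.23, limma adjusted p = 0.124). Flg had 374 and 749 in the labelled knockouts and 462 and 1112 in the controls, which overlapped (log2 fold change -0.44, SE 0.48, limma adjusted p = 0.627).

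DESeq2 on recovered reads called 5 of 6 members under IMQ (all but Flg), where it called 8.53% of genes, 4.01% upwards. Dermal fibroblast genes also stood lower in the IMQ labelled knockouts, with 0 of 10 called, 9 of 10 negative and a median log2 fold change of -1.26 against -0.01 over all genes. Their summed CPM was 739 and 2528 in the labelled knockouts and 788 and 3788 in the controls, with no marker at 0. In the untreated comparison 0 of these 10 genes were called and 10 of 10 were negative, with a median log2 fold change of -0.49. The part of dermal fibroblast genes in the family's values was not tested.

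The difference of both genotype effects (IMQ minus untreated) called 0 of 6 members and 0.0% of genes in limma (1472 genes, or 10.1%, at an unadjusted p under 0.05, 4.05% upwards and 6.02% downwards), 0 in edgeR, and 1 of 6 in DESeq2 (Rptn, adjusted p = 0.00804, where 0.671% of genes were called, 0.253% upwards). Rptn had the largest positive difference of the family, 1.92 (SE 0.48, limma adjusted p = 0.476). Tchhl1 was at -1.96 (SE 0.96, 0.512), Flg2 at -1.04 (SE 0.53, 0.522), Hrnr at -0.97 (SE 0.54, 0.553), Flg at -0.89 (SE 0.68, 0.655) and Tchh at 0.47 (SE 0.33, 0.626), all limma adjusted p. The difference for Tchhl1 was -0.74 without the female and -3.18 without the male IMQ labelled knockout (limma adjusted p = 0.877 and 0.0888), and -1.29 in edgeR and -1.24 in DESeq2. The effects under IMQ and at rest were therefore not shown to differ for any member in limma.

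Ratios between members within a library do not depend on scaling. They were chosen after the values were seen and are given without a test. Rptn had 20.0 and 17.3 reads per 100 Flg2 reads in the IMQ labelled knockouts and 0.991 and 0.820 in the IMQ controls. In untreated epidermis it had 5.80 and 4.52 in the labelled knockouts and 1.73 and 2.19 in the controls. Flg had 5.02 and 6.28 reads per 100 Flg2 reads in the untreated labelled knockouts and 2.51 and 2.61 in the controls, and under IMQ 5.10 and 5.32 in the labelled knockouts and 1.81 and 2.53 in the controls. Relative to Flg2, both Rptn and Flg were thus higher in all 4 labelled knockouts than in all 4 controls. Tchhl1 was too, with 1.59 to 8.52 reads per 100 Flg2 reads against 0.0104 to 0.0235. Hrnr was higher within each treatment, with 13.8 and 14.2 against 9.44 and 10.1 untreated, and 48.5 and 31.3 against 22.4 and 29.8 under IMQ. Flg2, the divisor, was itself lower in the labelled knockouts of both treatments, so a higher ratio does not show a gain of the other gene.

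IMQ was set against untreated as CPM with TMM factors, without a test, since the tables were scaled separately and the control genotypes differ. In the labelled knockouts Flg2, Flg and Tchhl1 were lower in both IMQ libraries than in both untreated ones (3 of 6 members, 40.1% of genes). Differences are given as the mean log2(CPM + 0.5) under IMQ minus that without treatment. Flg2 averaged 349.9 CPM under IMQ and 955.5 untreated (difference -1.52), Flg 18.3 and 54.6 (-1.60), and Tchhl1 12.3 and 77.1 (-3.02). Hrnr, Rptn and Tchh overlapped, at 130.1, 63.7 and 14.4 CPM under IMQ and 134.1, 48.7 and 18.2 untreated.

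In the controls Rptn, Tchh and Tchhl1 were the lower ones (3 of 6 members, 32.3% of genes). Rptn averaged 10.01 CPM in the IMQ controls and 31.6 in the untreated controls (difference in log2(CPM + 0.5) of -1.57), and Tchh 8.23 and 14.2 (-0.75). Tchhl1 had 4 reads in each IMQ control and 13 and 14 in the untreated ones. Flg2 (1133 and 1580 CPM), Flg (25.6 and 40.6) and Hrnr (307 and 155) overlapped between IMQ and untreated controls. Rptn was thus lower under IMQ in controls and not in labelled knockouts, while Flg and Flg2 did not overlap in the labelled knockouts alone. On the deposited values, scaled separately, Flg and Flg2 were lower without overlap in the controls too. Flg2 had 25543 and 44027 under IMQ against 47809 and 69881, and Flg 462 and 1112 against 1202 and 1821. Tchh and Hrnr were on these values lower without overlap in the labelled knockouts too. Tchh had 438 and 447 under IMQ against 845 and 533, and Hrnr 3561 and 4414 against 4508 and 5669. In the controls Tchh stayed lower and Hrnr still overlapped. For Flg, Flg2, Tchh and Hrnr the contrast between genotypes therefore depends on the scaling. The test of the difference of genotype effects, given above, called none of these genes in limma.

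The locus around the family is the epidermal differentiation complex, which also holds the small S100, loricrin, Sprr and Lce genes. Of 56 other tested genes between S100a1 and S100a10, 0 were called untreated, and 5 were called lower and 0 higher under IMQ, with log2 fold changes of -1.74 to 1.67 untreated and -3.87 to 3.04 under IMQ. Both changes of Tchhl1 lay above those ranges. On its far side S100a11, 51.7 kb away, was at -0.07 untreated and 0.43 under IMQ (limma adjusted p = 1.00 and 0.222). On the side of Flg2, Crnn, the cornulin gene and another fused-type gene that is no listed member, had too few reads to be tested, with 0 to 8.59 normalised counts.

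**Figure D4:**
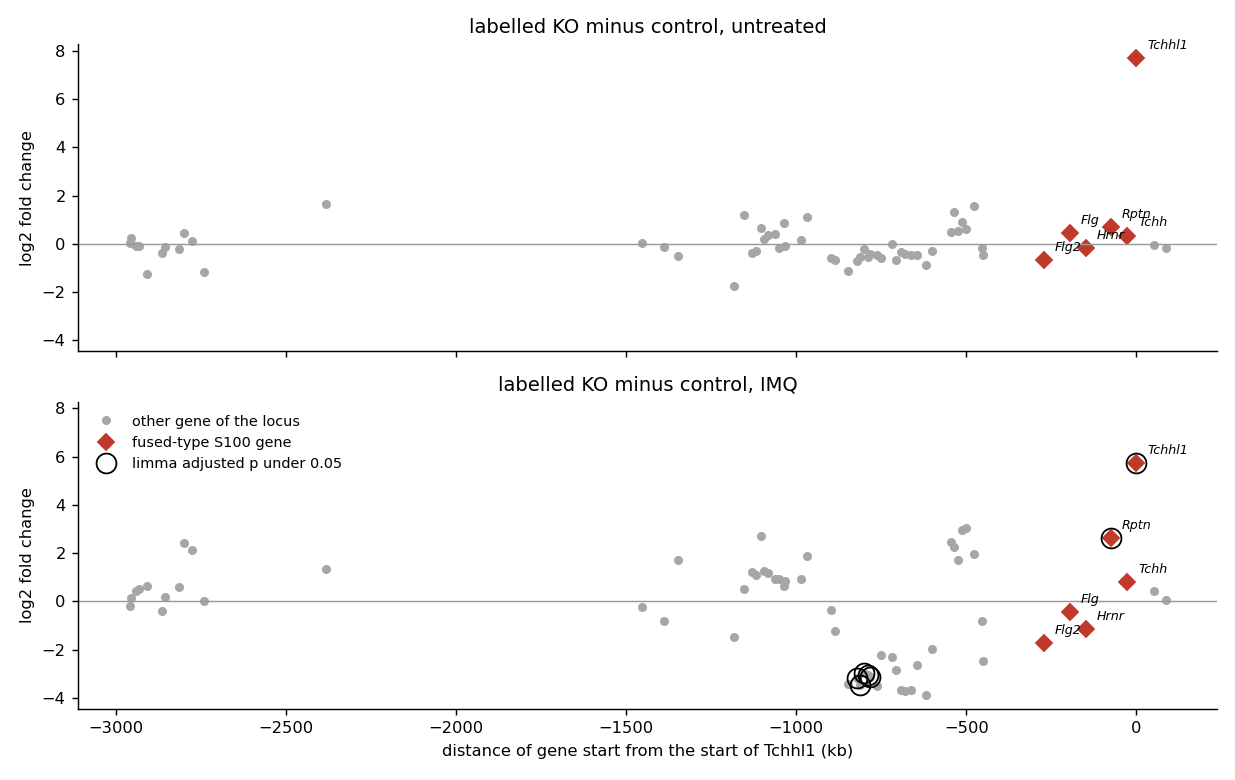
Log2 fold change of labelled knockout minus control for the 62 tested genes between S100a1 and S100a10, by distance of the gene start from that of Tchhl1 (kb); diamonds are the 6 genes, rings mark limma adjusted p under 0.05. Tchhl1 lies above all others in both panels (7.71 and 5.74), while S100a11, 51.7 kb away, is at -0.07 and 0.43.

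The small S100 genes, which share the calcium-binding domain with the family, had 0 of 12 called in either comparison. Under IMQ 10 of 12 were positive, with a median log2 fold change of 0.43 against -0.01 over all genes. S100a8, a calprotectin subunit, was at 2.43 (SE 0.79, limma adjusted p = 0.153), S100a16 at 0.53 (SE 0.13, 0.101), S100a14 at 0.43 (SE 0.15, 0.165) and S100a11 at 0.43 (SE 0.18, 0.222). In untreated epidermis 8 of 12 were negative with a median of -0.09, and S100a3 was at -1.24 (SE 0.43, limma adjusted p = 0.945).

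The proteases that cut profilaggrin and their inhibitors had 0 of 15 called in either comparison, with medians of -0.06 untreated and -0.12 under IMQ. Asprv1, the retroviral-like aspartic protease of the granular layer, had 91111 and 111343 normalised counts in the untreated labelled knockouts and 51674 and 77161 in the controls (log2 fold change 0.67, SE 0.26, limma adjusted p = 1.00). Under IMQ Prss8, the channel-activating protease prostasin, was at -1.12 (SE 0.26, limma adjusted p = 0.0896), Ctsl, which encodes cathepsin L, at -0.90 (SE 0.21, 0.0915), Furin, a proprotein convertase, at 0.75 (SE 0.22, 0.130) and Klk7, a desquamation kallikrein, at 0.37 (SE 0.16, 0.222).

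The list of citrullination and histidine breakdown enzymes, only some of which act on filaggrin, trichohyalin or filaggrin's amino acids, had 0 of 4 tested genes called. All 4 were positive untreated (median log2 fold change 0.43) and all 4 negative under IMQ (median -1.08). Padi4, a peptidylarginine deiminase, had 27.8 and 377 normalised counts in the IMQ labelled knockouts and 1320 and 848 in the controls (log2 fold change -3.34, SE 1.05, limma adjusted p = 0.143). Transglutaminases and envelope partners had 0 of 17 called in either comparison, with 13 of 17 negative under IMQ and a median of -0.12. Ivl, which encodes involucrin, was at -0.58 untreated (SE 0.20, limma adjusted p = 0.945). Under IMQ the suprabasal keratin gene Krt2 was at -1.64 (SE 0.60, limma adjusted p = 0.179), the plakin gene Ppl at -0.70 (SE 0.22, 0.139) and Krt10 at -0.63 (SE 0.26, 0.213).

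Among regulators named for filaggrin or cornification, 0 of 22 were called in either comparison, with medians of -0.01 untreated and -0.04 under IMQ. Ovol1 was at 0.79 (SE 0.15, limma adjusted p = 0.346) untreated and 0.64 (SE 0.15, 0.0880) under IMQ, and its paralog Ovol2 at 0.67 (SE 0.27, 1.00) and 0.64 (SE 0.27, 0.224). Under IMQ the oxidative stress factor gene Nfe2l2 was at 0.74 (SE 0.20, limma adjusted p = 0.113) and Ahr, the aryl hydrocarbon receptor gene, at -0.62 (SE 0.17, 0.121).

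Because trichohyalin belongs to the hair follicle, markers of its compartments stand beside Tchh and Tchhl1. The inner root sheath list had 0 of 8 tested genes called, with medians of 0.11 untreated and -0.09 under IMQ. Its summed CPM over 10 of 13 listed genes was 334 and 388 in the untreated labelled knockouts and 463 and 383 in the controls, and 282 and 348 against 300.01 and 375 under IMQ. None of those 10 genes was at 0 in a library. The inner root sheath list shares Tgm3 with the list of transglutaminases and envelope partners, so its sum is not particular to the root sheath. The hair shaft and medulla list had 0 of 9 called and medians of -0.12 untreated and -0.72 under IMQ, with a summed CPM of 10.6 to 24.7 over the 8 libraries. Its Krt31 and Krt33a were at 0 in both IMQ labelled knockouts, Krt82 was at 0 in all labelled knockouts and in the female IMQ control, and Foxn1 and Hoxc13, transcription factor genes of the hair shaft, were at -0.93 (SE 0.24, limma adjusted p = 0.105) and -0.72 (SE 0.31, 0.222). Sebaceous gland genes did stand higher beside Tchhl1 in untreated labelled knockouts, with 0 of 12 called, 12 of 12 positive and a median of 0.83, and a summed CPM of 3789 and 3901 against 1865 and 3016 in the controls. Under IMQ their median was 0.25 and the sums were 1194 and 2171 against 1759 and 1470. Of the neutrophil list, 0 of 5 tested genes were called under IMQ and 4 were positive, with a median of 1.40. Its sums were 589 and 464 in the IMQ labelled knockouts against 59.4 and 273, and 5.23 to 14.2 over the 4 untreated libraries. Under IMQ nearly all of each sum came from S100a8, S100a9 and Cxcr2, and S100a8 is also in the small S100 list. S100a9 had 9265 and 8655 normalised counts against 845 and 5071. The other listed genes added little, and Retnlg was at 0 in the female IMQ labelled knockout, so the sums do not describe the whole list. The part of either list in the family's values was not tested.

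Genes with the most similar pattern were sought by the root mean square difference over the 8 libraries of log2 values centred on each table's mean, as a description. For Tchhl1, Psca, a surface antigen gene of epithelia, was nearest at 1.11, followed by Atoh8 at 1.91 and Gper1 at 1.92. This distance grows with the size of a member's own changes. The root mean square of the centred values was 3.45 for Tchhl1 and 0.36 to 1.02 for the other members, so distances do not compare between members. Psca had 1503 and 2481 normalised counts in the untreated labelled knockouts and 19.9 and 42.9 in their controls. Rptn was nearest to Trem1 (0.36), Serpinb6c (0.42) and Dlec1 (0.43). Flg2 was nearest to Mrgprb3 (0.14), Arsa (0.16) and Tfr2 (0.17), Hrnr to Ypel2 (0.13), Gask1b (0.14) and Skint10 (0.15), Flg to Mmp2 (0.16), Ncmap (0.18) and Phf24 (0.20), and Tchh to Zmat4 (0.11), Efcab8 (0.14) and Terb1 (0.15). No member was among the nearest genes of another member.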

How the data were processed

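The authors deposited a signal: counts scaled by a size factor for each library, in an untreated and an IMQ table with separate scaling. The submitters' processing notes name the mm10 genome, STAR 2.5.2a, Trimmomatic 0.35, R 3.6.1 and DESeq2 1.24.0. The read counter, annotation and gene filter were not given in the sources used here. In every library 100% of values were whole multiples of a common step (tolerance 0.001), so dividing by it recovered whole reads. Headers call the controls WT, and the labels were followed.

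Genotype effects were fitted with limma 3.58.1 (R 4.3.3, trend and robust moderation) on log2(value + 1) for 14614 genes with a mean of at least 10 in either table. The fit held 4 group means over 8 libraries, with Benjamini-Hochberg adjustment over all genes. A fold change on this scale understates the change of low genes. Sex was an alternative block, as same-sex deviations from group means correlated between groups (0.145 to 0.463, and 0.0744 to 0.394 without X and Y). edgeR 4.0.16, DESeq2 1.42.0 and TMM factors used recovered reads. Lengths are of the longest GENCODE M21 transcript, which covered 16750 of 16902 symbols. Whether libraries of a group are separate animals is given only by sex, so p-values measure the spread between these libraries. Named genes were all members, up to 4 genes per list and comparison that had the largest changes at an unadjusted p under 0.05, neighbours on chromosome 3 and the 3 most similar genes per member. Members and lists were chosen with earlier results of these data known. The limma fit was also run on simulated counts with the same dispersion for every gene and no sex effect. That setting differs from these libraries, so the run checks the code and not the error rates here.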

Additional observations from a re-analysis of the deposited data

How the results depend on the processing

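Under IMQ, 2 members were called in limma. The count was 1 with TMM scaling of recovered reads (Rptn), 0 with plain moderation, the IMQ table alone or edgeR, 5 with DESeq2, and 0 to 3 with 1 library left out, where a lone library is assumed to vary like the other groups. With sex as replicate block it was 3 in limma and edgeR. The limma fold changes under IMQ are the same with plain moderation, each table alone, the block, or 1 untreated library fewer, so only the spread differs. In untreated epidermis 0 members were called, and 1 (Tchhl1) with a pseudocount of 5, the untreated table alone, sex as replicate block in limma or edgeR, and DESeq2. With 1 library left out it was 0 to 1. For the difference of effects the count of 0 became 1 with DESeq2 (Rptn). In limma, beside Tchhl1 untreated and Flg2 under IMQ, the block changed no call among the 6 members. In edgeR it changed those calls and, under IMQ, also those of Rptn and Tchhl1. Their edgeR adjusted p-values under IMQ went from 0.0530 to 0.0187 and from 0.0613 to 0.0245. Over these settings Tchhl1 ranged from 6.51 to 7.90 untreated and from 3.91 to 6.96 under IMQ, where Rptn ranged from 2.28 to 3.0 and Flg2 from -2.19 to -1.25. Signs turned for Hrnr untreated (0.0082 without the female labelled knockout, 0.16 without the male control, and -0.48 at the other end of the range) and for Flg under IMQ (0.063 and 0.19 without those libraries of the IMQ groups, and -1.07 at the other end). For IMQ against untreated, 3 members were lower among labelled knockouts and 3 among controls, and 5 and 5 on the deposited values. With 1 library left out they were 3 to 4 and 3 to 5, and members higher under IMQ were 0 to 2 and 0 to 1. Otherwise the cause was not tested. Greater depth would narrow the counting error of Tchhl1 in controls, with 4 to 14 reads.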

Other observations

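Within groups the male library was higher than the female in 22 of 24 comparisons of a member in a group, with a median ratio of 1.44 and a range of 0.630 to 5.46. By group it was 4 of 6 members in untreated labelled knockouts, and 6 of 6 in untreated controls, IMQ labelled knockouts and IMQ controls. Over all tested genes the male library was higher in 50.8%, 50.4%, 48.3% and 52.9% of genes in these 4 groups in turn. With 1 library of each sex per group this is a description, and the 6 genes share each library, so they are not independent. The exceptions were Rptn and Tchh in the untreated labelled knockouts. The widest gap was that of Tchhl1 in IMQ labelled knockouts, with 635 normalised counts in the male and 116 in the female. Col1a1, a dermal collagen gene, was also higher in the male of each group, with 5771 and 435 in the untreated labelled knockouts, 5356 and 994 in their controls, 14839 and 469 in the IMQ labelled knockouts and 23560 and 1535 in their controls. Its part in the pattern was not tested.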
